A study of Mus musculus with 7 samples.

Results

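In whole mouse ovaries, 6 of the 55487 gene identifiers in the count files are described here: the gonadotropin receptors Fshr and Lhcgr, the prolactin receptor Prlr, the progesterone-inactivating enzyme Akr1c18, the prostaglandin F2alpha receptor Ptgfr and the peptide hormone Insl3. They were chosen by name, and each name matched 1 identifier of the GENCODE M21 annotation (GRCm38, mm10). The libraries were polyA RNA-seq of ovaries of adult mice, taken at postnatal day 60. The study's methods place the females in diestrus. CNTR libraries (n = 3) came from control females, the first-generation offspring of dams given PBS in late gestation. PAMH F3 libraries (n = 4) came from females of the third generation descended from dams given anti-Müllerian hormone (AMH) at 0.12 mg/kg/day in the last days of gestation, with no further AMH in later generations. Hence the groups differ in generation (1 against 3) as well as in ancestral exposure, and the effects of generation and exposure cannot be told apart. The study used PAMH F3 mice as a model of transmitted polycystic ovary syndrome. The labels do not say whether each library held the ovaries of 1 animal, so the p-values measure the spread between these libraries.

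Follicle-stimulating hormone and luteinizing hormone (LH) from the pituitary act on the ovary through Fshr, made by granulosa cells, and Lhcgr, made by theca cells, the granulosa cells of large follicles and the corpus luteum. Each receptor couples mainly to Gs and adenylyl cyclase. In rodents, the corpus luteum that forms after ovulation is maintained by prolactin acting through Prlr and the kinase Jak2, and it breaks down when prostaglandin F2alpha acts through Ptgfr, a receptor that couples to Gq. Akr1c18 encodes 20alpha-hydroxysteroid dehydrogenase, which turns progesterone into an inactive steroid and accumulates in regressing corpora lutea. Insl3 is secreted by theca cells and signals through Rxfp2.

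Each library held 32158174 to 35485021 reads counted to genes. Levels are given as CPM, read counts relative to library size, scaled by the trimmed mean of M values (TMM). Differences between the groups were tested in edgeR's quasi-likelihood model with 2 surrogate variables (svaseq), which stand for variation not explained by the groups, and p-values were adjusted by Benjamini-Hochberg over 18779 genes. In that model 0 genes passed an adjusted p of 0.05 (0% called), and the smallest adjusted p was 0.104. At an unadjusted p under 0.05, 1432 genes were found (7.63% of those tested, 3.74% lower and 3.89% higher in PAMH F3). The counts at that p in the gene lists below stand beside these shares. DESeq2 with the same surrogate variables called 102 of 15447 genes (0.66%, 0.343% lower and 0.317% higher in PAMH F3), none of them a member. Markers of ovarian cell types were present: the summed level of 8 oocyte markers was 253 to 409 CPM over the libraries and that of 13 granulosa cell markers was 6369 to 11245 CPM. Markers of neighbouring tissue were present too, with sums of 2663 to 6600 CPM for 6 oviduct markers and 144 to 1178 CPM for 6 adipocyte markers. The log2 fold change was below 0 for all 6 adipocyte markers (median -0.66), all 5 erythroid markers (median -0.32) and all 6 endothelial markers (median -0.16), and 0, 0 and 1 of them had an unadjusted p under 0.05. The adipocyte median turned to 0.05 without CNTR replicate 1, and the erythroid median to 0.26 without CNTR replicate 3. The summed level of each of these lists overlapped between the groups, and their part in the results was not tested.

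Of the 6 members, 5 passed the filter on low counts and were tested, and 0 passed the adjusted threshold. The lowest levels of Ptgfr were in PAMH F3 libraries, and 2 of the 5 members, Ptgfr and Prlr, had an unadjusted p under 0.05, both lower in PAMH F3, beside 3.74% of all genes. Only 1 of them, Ptgfr, had such a p with 0 surrogate variables. Ptgfr and Prlr also varied together over the libraries (below), so they are not separate results. For each of the 5, the CPM ranges of the groups overlapped, whereas they did not overlap for 4.25% of all genes tested (2.4% with PAMH F3 below CNTR and 1.85% with PAMH F3 above). The median log2 fold change over these 5 members was -0.20, beside 0.01 over all genes tested.

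**Figure D1:**
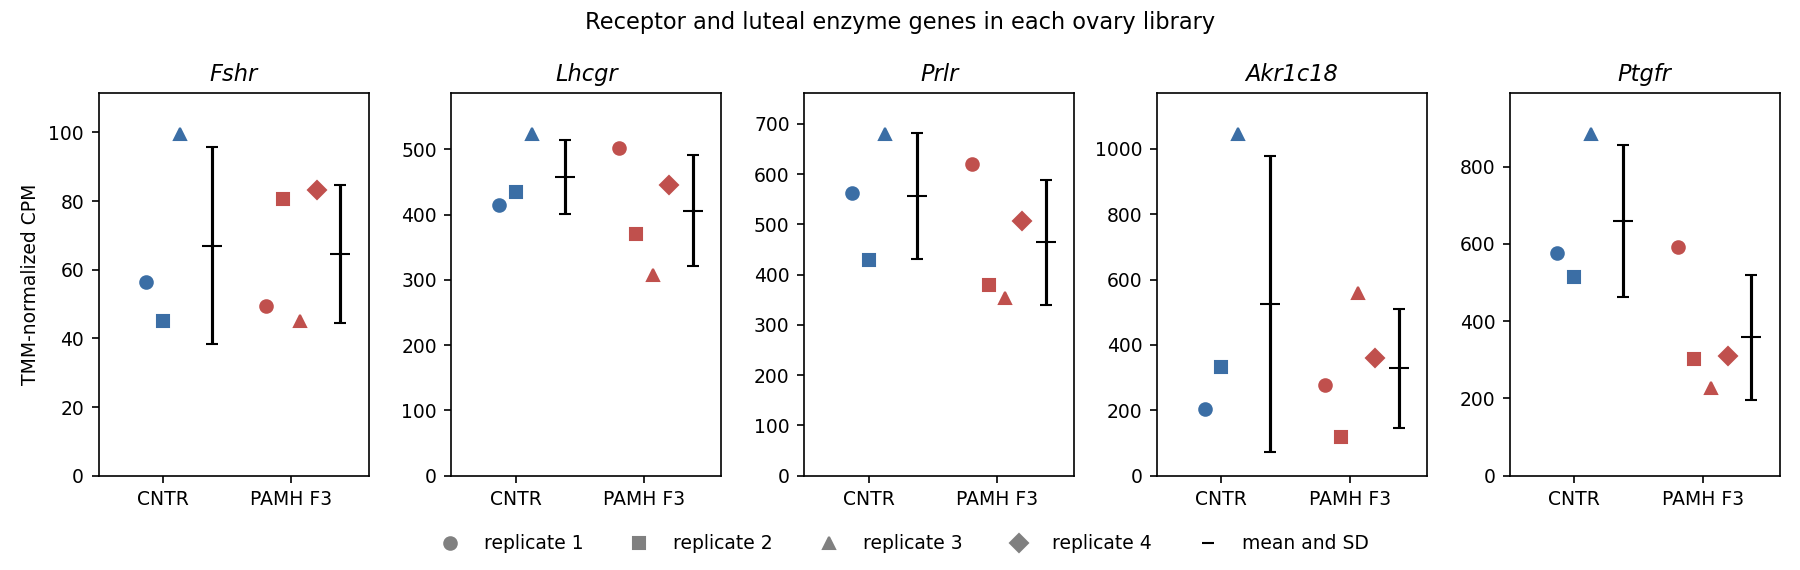
TMM-normalized CPM (y axis, linear, from 0) of the 5 tested members in the 3 CNTR (blue) and 4 PAMH F3 (red) libraries, with the mean and SD of each group in black and the replicate number as the point shape. CNTR replicate 3 is the highest library in each panel, and for Ptgfr 3 of the 4 PAMH F3 libraries lie below each CNTR library.

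Ptgfr (chromosome 3, 151796502 to 151837630, minus strand) was the member with the largest difference. Its level was 577, 516 and 883 CPM in CNTR replicates 1 to 3. In PAMH F3 it was 593, 302, 227 and 309 CPM in replicates 1 to 4. PAMH F3 replicates 2, 3 and 4 lay below each control, whereas PAMH F3 replicate 1 lay above 2 of the 3 controls, so that the groups overlapped. The mean was 659 ± 197 CPM in the controls (SD, n = 3), whereas that of PAMH F3 was 358 ± 161 CPM (SD, n = 4). The log2 fold change was -0.95 (SE 0.28), with an unadjusted p of 0.0116 and an adjusted p of 0.550 in edgeR, and it was -0.88 (SE 0.31) with 0 surrogate variables. The exact permutation test of mean log2 CPM over all 35 ways to divide 7 libraries into 3 and 4, two-sided, gave p = 0.114, where the smallest p the design allows is 0.0286.

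The test of Ptgfr turned on PAMH F3 replicate 1. Without that library the log2 fold change was -1.19 and the adjusted p was 0.0264 in edgeR, in a fit that called 31 of 18570 genes (0.167%), 29 of them lower in PAMH F3 (0.156% of the genes tested). With 0 surrogate variables and the same library left out, the log2 fold change was -1.24 and the adjusted p 0.324. As this library is the PAMH F3 library with the highest Ptgfr level, leaving it out removes the overlap between the groups. With any other library left out, Ptgfr stayed lower in PAMH F3 and above the adjusted threshold. Over all the settings run, the log2 fold change of Ptgfr lay between -1.24 and -0.61. Gm43618, a gene on the opposite strand, shares 4.85% of the exon bases of Ptgfr. The library kit marks strand, but whether the counting used strand is not given in the sources used here.

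**Figure D2:**
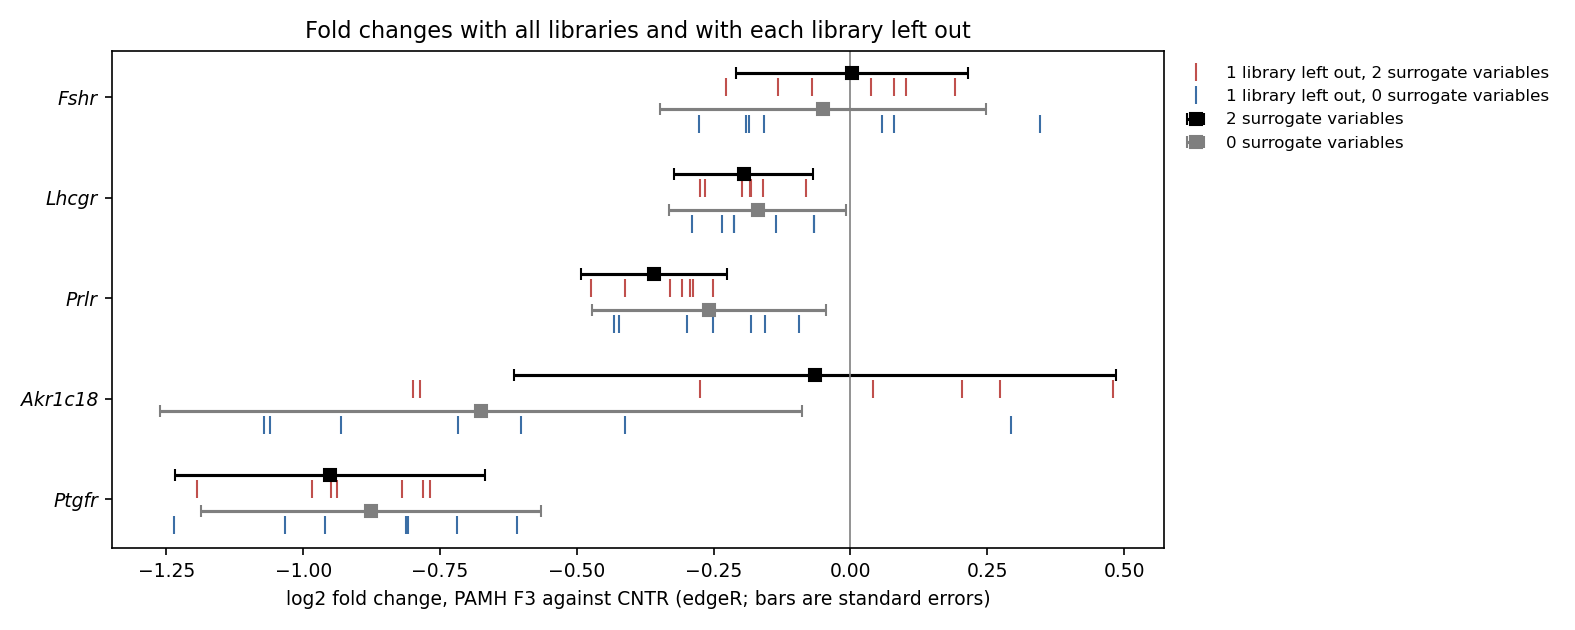
Log2 fold change of PAMH F3 against CNTR (x axis) for each tested member, with all 7 libraries under 2 (black) or 0 (grey) surrogate variables (squares, bars are standard errors) and with each library left out in turn (red and blue ticks). Ptgfr, Prlr and Lhcgr lie below 0 in every fit drawn, whereas Fshr and Akr1c18 lie on either side of 0.

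Ligand synthesis and signal transduction for Ptgfr were read from 15 measured genes of prostaglandin F2alpha synthesis, transport and signalling. Of these, 0 passed the adjusted threshold, 1 was higher and 2 were lower in PAMH F3 at an unadjusted p under 0.05, and the median log2 fold change was -0.03. Gnaq, the alpha subunit of Gq, was at 148 ± 13.9 CPM in CNTR and 150 ± 12.6 CPM in PAMH F3 (log2 fold change 0.01, SE 0.07). Ptgs1, the constitutive cyclooxygenase, was at 26.8 ± 7.80 against 24.6 ± 3.29 CPM, with a log2 fold change of -0.22 (SE 0.09, unadjusted p 0.0489). In edgeR with 0 surrogate variables its log2 fold change was -0.12, with an unadjusted p of 0.553. Akr1b7, the other lower gene, is named after its values were seen. Counted at 21 to 45 reads a library, it was at 1.18 ± 0.319 against 0.697 ± 0.116 CPM, with overlapping groups. Its log2 fold change was -0.86 (SE 0.23, unadjusted p 0.00638, adjusted p 0.526 in edgeR). With 0 surrogate variables it was -0.75, with an unadjusted p of 0.0205 in edgeR. Ptgs2, the inducible cyclooxygenase, is named after its values were seen, as the only gene of this list that DESeq2 with the surrogate variables called. It was at 6.75 ± 1.90 CPM in CNTR and 10.9 ± 2.20 CPM in PAMH F3, with overlapping groups, and its log2 fold change was 0.86 (SE 0.16) at an adjusted p of 0.369 in edgeR and 0.00140 in DESeq2.

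Prlr (chromosome 15, 10177238 to 10349180, plus strand) was measured at 562, 430 and 679 CPM in CNTR replicates 1 to 3. In PAMH F3 replicates 1 to 4 its level was 621, 379, 353 and 506 CPM. PAMH F3 replicates 2 and 3 were below each control, and PAMH F3 replicates 1 and 4 were within the control range. The means were 557 ± 125 and 465 ± 124 CPM. Its log2 fold change was -0.36 (SE 0.13) with an unadjusted p of 0.0308 and an adjusted p of 0.628 in edgeR. With 0 surrogate variables it was -0.26 (SE 0.21), and the unadjusted p was 0.257. In that fit it was -0.09 without CNTR replicate 3, -0.16 without PAMH F3 replicate 3, -0.43 without PAMH F3 replicate 1 and -0.42 without CNTR replicate 2. The exact permutation p was 0.371. The surrogate variables took 77.2% of the variance of Prlr within groups, against a median of 62.7% over the genes tested. A same-strand gene, Gm21973, shares 1.32% of the exon bases of Prlr.

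The genes through which Prlr signals showed no difference past the test: of 11 measured, 0 passed the adjusted threshold and 0 had an unadjusted p under 0.05, with a median log2 fold change of -0.01. Jak2, the kinase bound to Prlr, was at 106 ± 14.8 CPM in CNTR and 110 ± 3.83 CPM in PAMH F3. Stat5a and Stat5b, the transcription factors it activates, had log2 fold changes of 0.12 (SE 0.09) and -0.09 (SE 0.06). Cish, a feedback inhibitor induced by Stat5, ranged from 38.0 to 74.2 CPM in CNTR and from 22.9 to 86.0 CPM in PAMH F3, where replicate 1 held the highest and replicate 4 the lowest value of all 7 libraries. Socs2, another such inhibitor, was at 307 ± 11.3 against 318 ± 31.9 CPM. Prl itself had at most 1 count in any library.

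Lhcgr (chromosome 17, 88716481 to 88791990, minus strand) and Fshr (chromosome 17, 88984952 to 89200675, minus strand) are neighbours, 192961 bases apart. Lhcgr was at 415, 435 and 523 CPM in CNTR replicates 1 to 3. It was at 502, 370, 308 and 445 CPM in PAMH F3 replicates 1 to 4, where replicates 2 and 3 lay below the controls and replicates 1 and 4 within their range. The means were 458 ± 57.3 and 406 ± 84.8 CPM, the log2 fold change was -0.20 (SE 0.13), and the adjusted p was 0.769 in edgeR. Without PAMH F3 replicate 3 it was -0.08, and with 0 surrogate variables it was -0.17, or -0.07 without either CNTR replicate 3 or PAMH F3 replicate 3 and -0.29 without PAMH F3 replicate 1. The exact permutation p was 0.457.

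Fshr was at 56.3, 45.1 and 99.4 CPM in CNTR and at 49.4, 80.7, 45.0 and 83.1 CPM in PAMH F3. Its values fell into a lower set of 4 libraries, at 45.0 to 56.3 CPM, and an upper set of 3, at 80.7 to 99.4 CPM, and each set held libraries of both groups. The means were 66.9 ± 28.7 and 64.6 ± 20.1 CPM, the log2 fold change was 0.00 (SE 0.21, adjusted p 0.998 in edgeR), and the exact permutation p was 0.971.

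Promoters are shown for Lhcgr and Prlr, which had parallel levels over the libraries (below), and for Fshr, which did not vary with them. Whether any motif relates to these levels was not tested. The 250 bases before the start were taken from RefSeq (GRCm38.p6), 5′ to 3′ on the gene's strand, and searched on both strands. Capitals mark the motif found. All of the bases shown lie outside annotated exons. For Prlr, the second of 3 RefSeq starts is shown, the only one of them with a match.
Lhcgr, chr17:88792015-88792264, minus strand: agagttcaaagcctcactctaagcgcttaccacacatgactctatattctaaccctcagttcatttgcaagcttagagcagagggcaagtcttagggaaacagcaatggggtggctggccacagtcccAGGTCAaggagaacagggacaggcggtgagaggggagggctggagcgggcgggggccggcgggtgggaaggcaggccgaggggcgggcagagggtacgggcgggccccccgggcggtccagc
Prlr, chr15:10223656-10223905, plus strand: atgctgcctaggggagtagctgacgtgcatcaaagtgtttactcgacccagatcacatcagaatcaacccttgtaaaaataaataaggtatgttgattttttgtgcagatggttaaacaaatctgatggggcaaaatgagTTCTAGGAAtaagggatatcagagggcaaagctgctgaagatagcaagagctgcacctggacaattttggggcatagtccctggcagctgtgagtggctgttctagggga
Fshr, chr17:89200676-89200925, minus strand: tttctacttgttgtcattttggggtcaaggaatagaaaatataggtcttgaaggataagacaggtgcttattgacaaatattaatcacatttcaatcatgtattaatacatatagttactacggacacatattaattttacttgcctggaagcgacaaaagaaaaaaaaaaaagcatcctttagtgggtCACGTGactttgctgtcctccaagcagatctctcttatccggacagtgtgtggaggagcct
The letters AGGTCA, bound by nuclear receptors, lie 122 to 117 bases before the Lhcgr start, and the same letters, on the other strand, lie 170 to 165 bases before the Ptgfr start, where all 250 bases of the window lie in annotated exons. They occur in 14.0% of 32851 promoters of this length. TTCNNNGAA, the site form bound by STAT factors, lies 110 to 102 bases before the Prlr start shown and occurs in 7.02% of promoters. CACGTG, an E-box, lies 61 to 56 bases before the Fshr start and occurs in 6.02%. TGACGTCA, the cAMP response element, was found in 0 of the 8 windows of the members, beside 1.55% of all promoters. AGATAA, bound by the zinc-finger factors Gata4 and Gata6, was found in 0 of the 8 as well, beside 9.99%.

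Downstream of the gonadotropin receptors, 24 genes for Gs, adenylyl cyclases, protein kinase A, phosphodiesterases and arrestins were measured. None passed the adjusted threshold, 0 were higher and 2 lower in PAMH F3 at an unadjusted p under 0.05, and the median log2 fold change was -0.02. Gnas, the alpha subunit of Gs, was at 662 ± 36.2 against 638 ± 5.94 CPM. Prkar2b, a regulatory subunit of protein kinase A that granulosa cells induce, was at 985 ± 357 against 1135 ± 244 CPM (log2 fold change 0.25, SE 0.17). Pde4d, which degrades cAMP, was at 6.32 ± 0.849 against 6.16 ± 2.31 CPM. Mvk, a mevalonate kinase that also binds Lhcgr mRNA, was at 21.5 ± 4.08 against 18.3 ± 3.26 CPM. The 2 lower genes, named after their values were seen, were Pde4a (log2 fold change -0.38, SE 0.15) and Crem (-0.20, SE 0.08). For either gene PAMH F3 lay below CNTR without overlap, as for 2.4% of all genes tested. Of 6 related receptors of the glycoprotein hormone and relaxin receptor families, 0 passed the adjusted threshold, and the median log2 fold change was -0.10. At an unadjusted p under 0.05, 0 were higher and 1 lower in PAMH F3, and with 0 surrogate variables 0 were lower. The lower gene, named after its values were seen, was Lgr4 (log2 fold change -0.23, SE 0.09). Tshr was at 34.6 ± 10.1 against 35.4 ± 11.8 CPM. Gnrhr was counted at 10 to 24 reads a library. Fshb and Lhb, the pituitary subunits of the ligands, had 0 counts in every library, which allows up to 0.0941 CPM.

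Akr1c18 (chromosome 13, 4132615 to 4150654, minus strand) varied most among the members. Its level was 203, 333 and 1043 CPM in CNTR replicates 1 to 3. In PAMH F3 replicates 1 to 4 it was 277, 120, 557 and 360 CPM. The highest library was 8.71-fold above the lowest, and PAMH F3 libraries held the lowest and the second highest value. The means were 526 ± 452 and 328 ± 182 CPM. The log2 fold change was -0.06 (SE 0.55, adjusted p 0.991 in edgeR) with 2 surrogate variables and -0.68 (SE 0.59, adjusted p 0.994) with 0. Without CNTR replicate 3 these values were 0.48 and 0.29. With 2 surrogate variables the sign also turned without PAMH F3 replicate 1 (0.041), replicate 2 (0.27) or replicate 4 (0.20), so no direction held for Akr1c18. The exact permutation p was 0.514. Its pooled SD of log2 CPM within groups was 1.05, larger than that of 99.4% of the genes tested, whose median was 0.20. That SD was 0.52 for Ptgfr, 0.52 for Fshr, 0.36 for Prlr and 0.26 for Lhcgr.

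Other genes of the aldo-keto reductase 1C family numbered 8, of which 6 were tested and 0 passed the adjusted threshold. All 6 had a log2 fold change above 0, with a median of 0.16, and 2 were higher in PAMH F3 at an unadjusted p under 0.05. With 0 surrogate variables none of the 6 reached that p (the lowest was 0.126 in edgeR, for Akr1c13) and Akr1c21 was at -0.17. With 2 surrogate variables and a library left out, the median ranged from 0.098 to 0.41, the latter without CNTR replicate 1. The 2 higher genes, named after their values were seen, were Akr1c12 at 1.73 ± 0.592 against 2.52 ± 0.892 CPM and Akr1c13 at 18.9 ± 4.82 against 24.2 ± 5.36 CPM. As members of this family are similar in sequence, the assignment of reads among them is uncertain, also for Akr1c18.

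Insl3 (chromosome 8, 71689214 to 71690575, plus strand) was nearly uncounted, with 0, 5 and 0 reads in CNTR and 3, 3, 2 and 1 reads in PAMH F3. These 14 reads in all correspond to at most 0.150 CPM, 0 counts allow up to 0.0928 CPM, and the gene was not tested. Cyp17a1, the androgen-forming enzyme of theca cells, was at 141, 203 and 428 CPM in CNTR and at 168, 151, 175 and 151 CPM in PAMH F3. A theca cell transcript was therefore well counted while Insl3 was not. In the annotation, exon 2 of Insl3 (404 of the 623 exon bases, 64.8%) is also an exon of Jak3, a cytokine receptor kinase, on the same strand, whereas exon 1 (219 bases) is not shared. Jak3 was counted at 173 to 373 reads a library. HTSeq by default gives a read that lies in exons of different genes to none of them. The share of reads set aside as ambiguous over all genes was 0.720% to 0.848%, and how many of them lay on Insl3 was not tested. Reads that lie within exon 1 would not be set aside by this rule. Because the share lost to the overlap is not known, the counts of Insl3 were not read as its transcript level. The coding sequence is 369 bases long, of which 175 lie outside Jak3 exons and 194 are shared. Its first 250 bases show where the overlap starts, with the 175 unshared bases in capitals and 75 shared bases in lower case, on exons 1 and 2 of the interval given above (GENCODE M21, plus strand).
Insl3: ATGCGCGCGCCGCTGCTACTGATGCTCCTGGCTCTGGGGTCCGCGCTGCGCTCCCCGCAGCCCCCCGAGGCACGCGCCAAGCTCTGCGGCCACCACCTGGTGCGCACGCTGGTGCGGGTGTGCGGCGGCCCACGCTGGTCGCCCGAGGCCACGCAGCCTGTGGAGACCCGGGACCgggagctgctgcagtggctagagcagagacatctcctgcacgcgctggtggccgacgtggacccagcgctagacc
The unshared coding bases are 76% G or C.

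**Figure D3:**
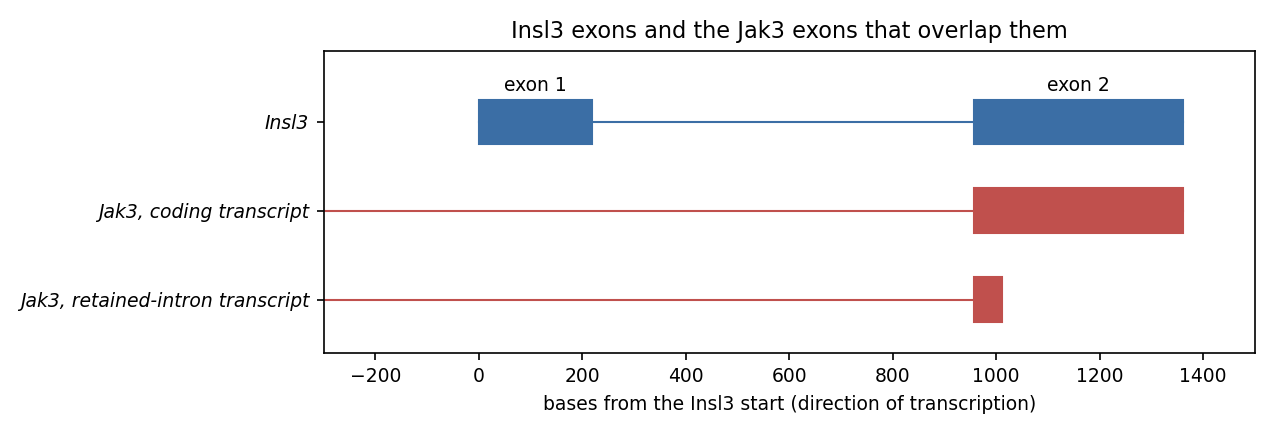
Insl3 exons (blue) and the last exons of the 2 Jak3 transcripts that reach them (red), in bases from the Insl3 start on the x axis, with introns as thin lines. Exon 2 of Insl3 is covered whole by the last exon of the coding Jak3 transcript, and exon 1 is free of Jak3 exons.

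The receptor of Insl3, Rxfp2, was counted at 9 to 27 reads a library, with 0.484 ± 0.287 CPM in CNTR and 0.389 ± 0.0741 CPM in PAMH F3. Rxfp1, the relaxin receptor, was at 6.57 ± 0.539 against 7.52 ± 1.65 CPM. Of 8 relaxin family hormones and receptors beside Insl3, 4 were tested, and 0 had an unadjusted p under 0.05. Among 10 theca cell markers, 0 passed the adjusted threshold, with 1 higher and 1 lower in PAMH F3 at an unadjusted p under 0.05. The lower gene was Fdx1, which also stands in the luteal list below. Cyp17a1 had means of 258 ± 151 and 161 ± 12.3 CPM and a log2 fold change of -0.34 (SE 0.20, adjusted p 0.742 in edgeR).

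Because scaling cancels within a library, ratios between genes of the same library were also compared, 6 in all, with exact two-sided permutation tests and p-values adjusted over the 6. The ratio of Insl3 to Cyp17a1 was not formed, as Insl3 was at 0 in 2 libraries. Ptgfr reads per Lhcgr read numbered 1.39, 1.19 and 1.69 in CNTR. They numbered 1.18, 0.817, 0.737 and 0.695 in PAMH F3. The groups did not overlap, by the small margin between CNTR replicate 2 and PAMH F3 replicate 1, and the log2 ratio was lower by 0.75 on average (log2 ratio 0.49 ± 0.26 in CNTR, -0.25 ± 0.34 in PAMH F3). The exact permutation p was 0.0571, adjusted to 0.343. Over all genes, the ratio to Lhcgr did not overlap between the groups for 3.26%, and for 0.378% it was lower in every PAMH F3 library. Each of the other 5 ratios overlapped between the groups, with exact permutation p-values from 0.400 to 0.743. Akr1c18 reads per Prlr read ranged from 0.361 to 1.54 in CNTR and from 0.316 to 1.58 in PAMH F3.

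**Figure D4:**
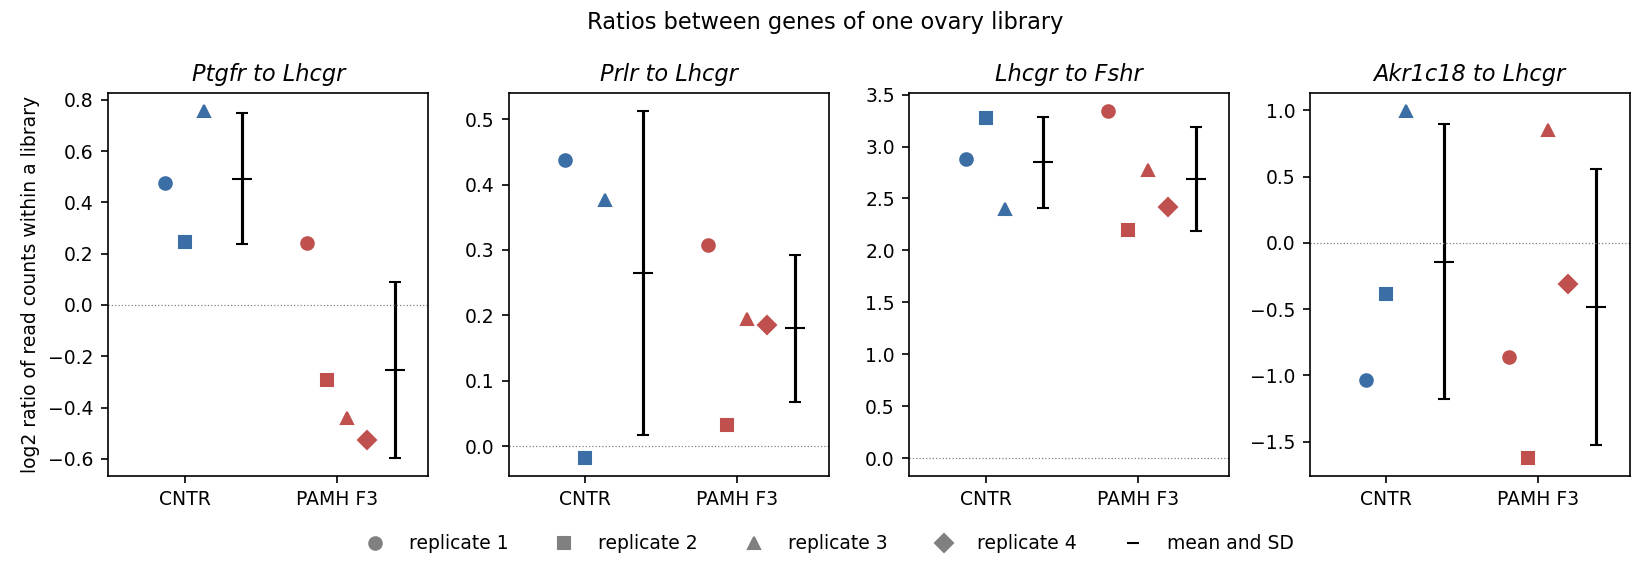
Log2 ratio of the read counts of 2 genes within each library (y axis, log2 scale, drawn per panel) for 4 of the 6 ratios, CNTR in blue and PAMH F3 in red, mean and SD in black. Only the ratio of Ptgfr to Lhcgr separates the groups in these panels, with CNTR replicate 2 and PAMH F3 replicate 1 nearly level.

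Across the libraries, Lhcgr, Prlr and Ptgfr varied together. Over the 7 libraries Lhcgr and Prlr had Pearson's r = 0.90 (exact permutation p = 0.00377, adjusted over 10 pairs 0.0377) and Spearman's rho = 0.89 (p = 0.0123), and r = 0.79 without CNTR replicate 3 and PAMH F3 replicate 3, the libraries farthest from the median of Lhcgr. For Prlr and Ptgfr, r was 0.86 (exact permutation p = 0.0202, adjusted 0.0675) and rho 0.96 (p = 0.00278), with r = 0.64 without the same 2 libraries. For Lhcgr and Ptgfr, r was 0.85 (exact permutation p = 0.0161, adjusted 0.0675) and rho 0.86 (p = 0.0238), with r = 0.56 without them. The other 7 pairs, each with Fshr or Akr1c18, had r between 0.16 and 0.38 and adjusted permutation p-values of 0.711 or more. These r rested on a few libraries: without the 2 farthest, they ranged from -0.92 for Fshr with Akr1c18 and -0.89 for Akr1c18 with Ptgfr to 0.76 for Lhcgr with Akr1c18. Each r and p takes the 7 libraries together without regard to group, so the lower means of Lhcgr, Prlr and Ptgfr in PAMH F3 enter both. How many pairs among all genes reach such an r was not tested. These values share each library's cell makeup, and no within-group correlation was given because each group has fewer than 6 libraries. CNTR replicate 3 was the highest library for each of the 5 members, and PAMH F3 replicate 3 was the lowest for 4 of them, but the second highest for Akr1c18. In bulk tissue, fewer cells of a type and less RNA per cell cannot be told apart.

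The genes most like each member, by Pearson's r of log2 CPM over the 7 libraries among 15788 named genes, are given as a description. For Ptgfr they were Apol7e (r = 0.99), Homer2 (r = 0.98) and Irx3os (r = 0.97). Homer2, a scaffold protein of calcium signalling, was at 21.5, 21.5 and 35.5 CPM in CNTR and 19.9, 11.7, 9.62 and 13.5 CPM in PAMH F3. Its PAMH F3 values lay below CNTR without overlap, as for 2.4% of all genes tested. Because Homer2 was picked for following Ptgfr, this is not a separate result. For Lhcgr they were Bcorl1, Clec14a and Dnm3os, with r of 0.98 to 0.99, and for Prlr they were Rora, Pla2g2d and Garnl3, with r of 0.97. For Fshr they were Heph, Klhl13 and Asph, with r of 0.96. For Akr1c18 they were Hadh, Dhcr7 and Tmem185b, with r of 0.95 to 0.96. Dhcr7, which makes cholesterol in its last step, ranged from 51.7 to 79.8 CPM, a far narrower range than that of Akr1c18.

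**Figure D5:**
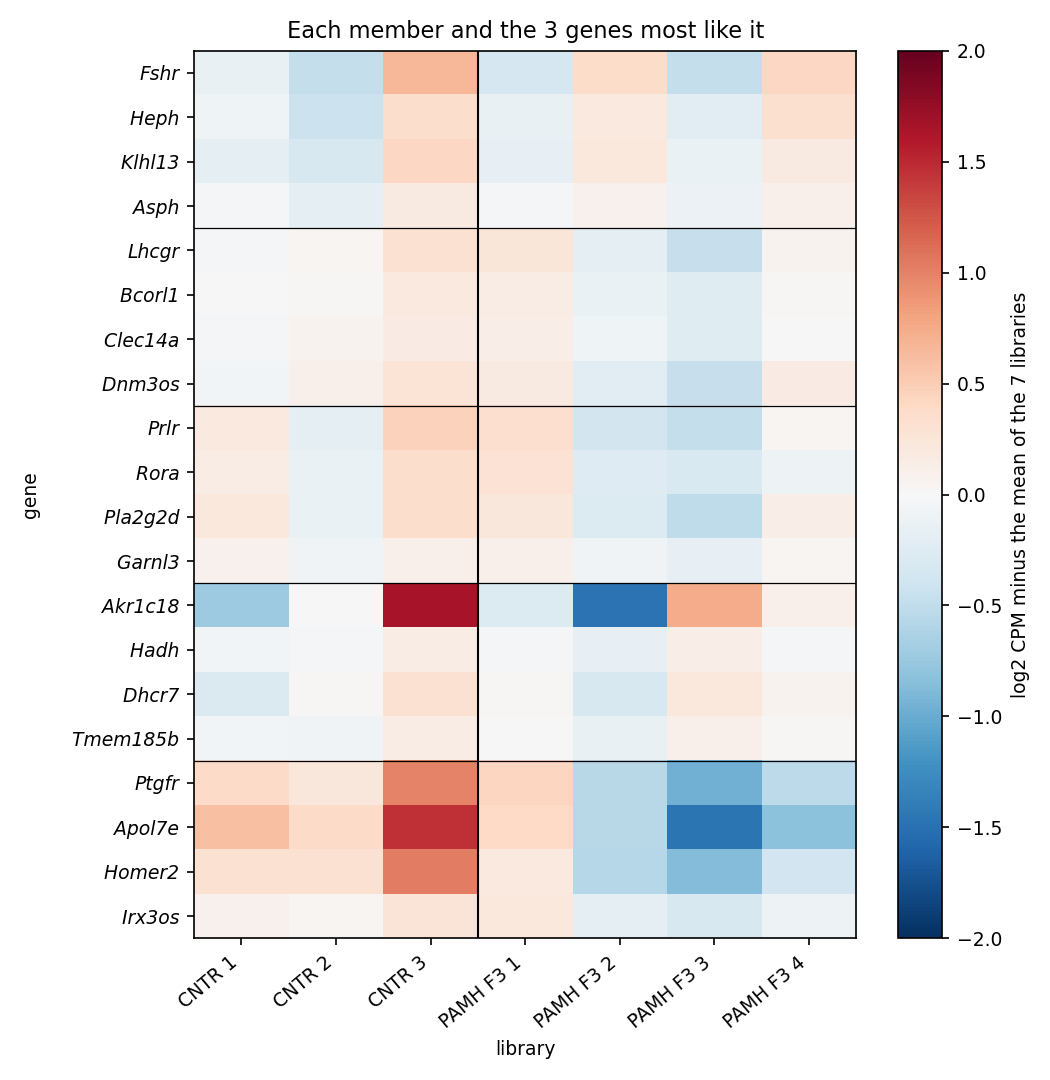
Log2 CPM minus the mean of the 7 libraries (colour, red above and blue below) for each tested member and, indented, the 3 genes with the highest correlation with it. The Ptgfr block is red in the CNTR libraries and PAMH F3 replicate 1 and blue in PAMH F3 replicates 2 to 4, and Akr1c18 has the widest colour range.

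Luteal function was read from 13 genes of luteal steroidogenesis, of which 0 passed the adjusted threshold. Star, Cyp11a1, Fdx1 and Nr5a1 were also among the theca cell markers, and Nr5a2 among the granulosa cell markers. Of the 13, 0 were higher and 2 lower in PAMH F3 at an unadjusted p under 0.05, beside 3.89% and 3.74% of all genes. The median log2 fold change was -0.06. That median was -0.18 with 0 surrogate variables and ranged from -0.22 without CNTR replicate 1 to 0.00052 without PAMH F3 replicate 2. Star, which moves cholesterol into mitochondria, was at 452 ± 105 against 483 ± 123 CPM, and Scarb1, the lipoprotein receptor, was at 547 ± 125 against 481 ± 69.3 CPM. Cyp11a1, the first enzyme of steroid synthesis, was at 4590 ± 334 against 3789 ± 904 CPM (log2 fold change -0.30, SE 0.17, adjusted p 0.730 in edgeR). Hsd3b1 was at 4802 ± 634 against 5006 ± 840 CPM. Hsd17b7, which rodent corpora lutea use for estradiol, ranged from 161 to 347 CPM in CNTR and from 77.7 to 291 CPM in PAMH F3. Parm1 was at 49.1 ± 11.6 against 56.1 ± 4.54 CPM. The transcription factors Nr5a1 and Nr5a2 had log2 fold changes of 0.04 (SE 0.06) and 0.17 (SE 0.11). The 2 lower genes, named after their values were seen, were Sfrp4, a secreted Wnt-binding protein, and Fdx1, the electron donor of Cyp11a1. Sfrp4 was at 1839 ± 341 against 944 ± 385 CPM (log2 fold change -0.99, SE 0.29, unadjusted p 0.0115, adjusted p 0.550 in edgeR) and Fdx1 at 350 ± 58.2 against 263 ± 14.6 CPM. For each of them PAMH F3 lay below CNTR without overlap, as for 2.4% of all genes tested. The summed level of the 13 genes was 13390, 13800 and 15451 CPM in CNTR and 14596, 10892, 10556 and 14023 CPM in PAMH F3. PAMH F3 replicates 2 and 3 were therefore low in this sum as in Lhcgr, Prlr and Ptgfr, but not in each of its genes. In these 2 libraries Cyp11a1, at 3178 and 2939 CPM, lay below CNTR, whereas Hsd3b1, at 4436 and 4253 CPM, lay within the CNTR range. Star was below CNTR in PAMH F3 replicate 2 (311 CPM) and above it in PAMH F3 replicate 3 (583 CPM). PAMH F3 replicate 4 was low in Ptgfr with a sum within the CNTR range, most of it Cyp11a1 (4139 CPM) and Hsd3b1 (6086 CPM). In that library Star, at 481 CPM, lay within the CNTR range, and Hsd17b7, at 95.9 CPM, lay below it. As Cyp11a1 is also among the theca cell markers, the sum is not a measure of luteal cells alone. The part of luteal content in the level of Ptgfr was not tested.

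Of 10 genes that rise in luteal regression or as an early response, 0 passed the adjusted threshold, 1 was higher and 2 were lower in PAMH F3 at an unadjusted p under 0.05, and the median log2 fold change was -0.28. With a library left out that median ranged from -0.67, without CNTR replicate 1, to -0.17. Timp1, an inhibitor of metalloproteinases, named after its values were seen, was at 217 ± 73.0 CPM in CNTR and 100 ± 45.7 CPM in PAMH F3 without overlap, its log2 fold change being -1.27 (SE 0.23), with an adjusted p of 0.369 in edgeR and 0.0293 in DESeq2 with the surrogate variables. The other lower gene, Junb, and the higher gene, Fos, are also named after their values were seen. Junb was at 7.65 ± 7.07 against 2.18 ± 0.628 CPM, also without overlap (log2 fold change -1.03, SE 0.31). Fos was at 15.9 ± 5.17 against 16.4 ± 0.895 CPM (0.28, SE 0.11). With 0 surrogate variables the log2 fold changes of Junb and Fos were -1.80 and 0.04. Over all genes tested, PAMH F3 lay below CNTR without overlap for 2.4%.

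Of 13 granulosa cell markers, 0 passed the adjusted threshold, and the median log2 fold change was 0.15. At an unadjusted p under 0.05, 5 were higher and 2 lower in PAMH F3, beside 3.89% and 3.74% of all genes. These counts fell to 3 higher and 1 lower with 0 surrogate variables. Inha, a subunit of inhibin, was at 1699 ± 408 against 1739 ± 256 CPM, and Cyp19a1, the aromatase, at 117 ± 83.1 against 99.4 ± 31.8 CPM. Hsd17b1, which forms estradiol, was at 181 ± 58.6 against 225 ± 43.2 CPM (log2 fold change 0.42, SE 0.11, unadjusted p 0.00583, adjusted p 0.522 in edgeR), and Amh at 114 ± 32.4 against 86.7 ± 18.1 CPM (-0.34, SE 0.13, unadjusted p 0.0369, adjusted p 0.633). In edgeR with 0 surrogate variables the unadjusted p was 0.159 for Hsd17b1 and 0.0954 for Amh. DESeq2 with the surrogate variables called 2 of the 13, Inhbb and Fst, both higher in PAMH F3, beside 0.317% of all its genes. They are named here for that call. Inhbb was at 434 ± 149 against 635 ± 71.3 CPM (adjusted p 0.491 in edgeR and 0.00338 in DESeq2). Fst was at 211 ± 59.3 against 314 ± 50.9 CPM (adjusted p 0.522 in edgeR and 0.00634 in DESeq2). For each, the groups overlapped. In edgeR with 0 surrogate variables their unadjusted p was 0.0218 and 0.0127. The summed granulosa marker level was 7137, 6369 and 10431 CPM in CNTR and 8057, 8944, 8144 and 11245 CPM in PAMH F3, and CNTR replicate 3, the highest library for Fshr, held the highest of the CNTR sums.

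Levels between genes were compared only per length. On the scale of CPM per kilobase of all annotated exons, the CNTR means were 436 ± 375 for Akr1c18, 97.2 ± 29.1 for Ptgfr, 59.9 ± 7.49 for Lhcgr, 36.3 ± 8.13 for Prlr and 28.4 ± 12.2 for Fshr. Insl3 was left out of this order, as its counts were not read as its level. Prlr and Fshr, neighbours in this order, overlapped in their libraries. The order depended on the length used: per kilobase of the median annotated transcript, Akr1c18 was at 457 ± 393, Prlr at 448 ± 100, Ptgfr at 429 ± 128 and Lhcgr at 182 ± 22.8 in CNTR. Prlr moved up because its exons together span 15.3 kb and its median transcript 1.24 kb. On that scale the CNTR libraries of Akr1c18 (176 to 906), Prlr (345 to 546) and Ptgfr (336 to 575) overlapped.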

How the data were processed

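Ovary libraries were made with a stranded polyA kit. According to the submitters' processing notes, reads were handled with bcl2fastq 2.17.1.14, STAR 2.5.3a and HTSeq 0.6.1p1 on mm10; the annotation release and strand setting are not given in the sources used here. The deposited values are raw counts per Ensembl gene, made by the authors, and 45.8% to 47.5% of all reads stand in HTSeq summary lines (37.7% to 40.7% as not uniquely aligned), which were left out. Of 55487 identifiers, 55394 matched GENCODE M21 and 33791 had at least 1 count. Groups followed the labels (3 CNTR, 4 PAMH F3). The labels give the injections as subcutaneous and the study's methods as intraperitoneal.

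Counts were tested in edgeR 4.0.16 (filterByExpr, minimum count 10, TMM, quasi-likelihood F test) with 2 surrogate variables from sva 3.50.0, as the study also used surrogate variables, leaving 3 residual degrees of freedom. Single values per library were compared by exact permutation. Alternatives were DESeq2 1.42.0, 0 or 1 surrogate variable, other filters and scalings, a replicate block, and each library left out. The code was tested on simulated data. Genes named beside the members were 28 partners picked for their role, the 3 genes most correlated with each member, and list genes that passed the adjusted threshold, of which there were none. The members and lists were chosen with earlier results of these data known. Prl, Fshb, Lhb, Jak3 and the other genes named beside these were chosen after their values were seen.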

Additional observations from a re-analysis of the deposited data

Results flagged for a closer look

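Among the 48 named genes with a test for a value that stands apart in the 4 PAMH F3 libraries, 3 had such a value, and chance gives about 1 in 20. Socs2, an inhibitor of prolactin receptor signalling, was at 365 CPM in PAMH F3 replicate 2, while its 3 sister libraries held 296 to 306 CPM. Ptgs1 was at 19.7 CPM in PAMH F3 replicate 4, against 25.8 to 26.7 CPM in the others. Nr5a1, a transcription factor of steroidogenic cells, was at 269 CPM in PAMH F3 replicate 4, against 244 to 247 CPM in the others. None of the members had a value that stood apart in this way.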

How the results depend on the processing

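The log2 fold changes of Ptgfr, Prlr and Lhcgr were below 0 in all 25 settings run for each. These include the setting of 2 surrogate variables, which repeats the main fit. Ptgfr without PAMH F3 replicate 1 was the single member result to pass the adjusted threshold (-1.19, adjusted p 0.0264, range over its settings 0.0264 to 1.00). With a library left out, Ptgfr ranged from -1.19 to -0.77 (-1.24 to -0.61 with 0 surrogate variables), Prlr from -0.47 to -0.25 (-0.43 to -0.09) and Lhcgr from -0.27 to -0.08 (-0.29 to -0.07). The number of genes called was 102 in DESeq2 with the surrogate variables, 8 in DESeq2 without them, 8 without a filter on low counts, and 0 to 37 with a library left out (37 without CNTR replicate 1, 31 without PAMH F3 replicate 1, and 0 to 2 with 0 surrogate variables, an alternative chosen after seeing the data). Fshr, at 0.00, turned to -0.050 with 0 surrogate variables, -0.014 with 1, -0.051 in DESeq2 without them and -0.0046 with at least 10 counts in every library, and ranged from -0.23 to 0.19 with a library left out (-0.28 to 0.35 with 0 surrogate variables, among them -0.19 without PAMH F3 replicate 4). Akr1c18 ranged from -0.80 to 0.48 with a library left out (-1.07 to 0.29 with 0 surrogate variables). The differences in mean log2 CPM then ranged from -0.27 to 0.30 for Fshr and -1.05 to 0.14 for Akr1c18. The log2 ratios ranged from -0.39 to 0.046 for Lhcgr to Fshr, -0.79 to 0.25 for Akr1c18 to Prlr, -0.79 to 0.22 for Akr1c18 to Lhcgr and -0.23 to 0.00096 for Prlr to Lhcgr, and as ratios of median CPM Akr1c18 to Prlr was 0.28 and Akr1c18 to Lhcgr 0.029. The causes were not tested. Permutation tests with a library left out cannot reach 0.05.

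The replicate numbers did not pair the libraries (correlations of same-numbered libraries 0.096, 0.097 and -0.248), so a fit with the replicate number as a block is given only here: Fshr was -0.16, and 0 genes were called. The 5 tested members had 1502 counts or more in each library, and Insl3 at most 5. GC content related to the counts of CNTR replicate 2 more than to those of the others (0.318 log2 units per 10% GC, against -0.130 to 0.0495).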
